A study of Mus musculus with 10 samples.

Results

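The transcriptome described here is that of control hematopoietic stem cells (HSCs), taken from the 5 control libraries of the 10 RNA-seq libraries in the series. A gene entered the description when it had at least 10 counts in each of these 5 libraries. This held for 11909 of the 26146 genes in the count table (45.5%), and no comparison with the other 5 libraries was made. The study asked how mouse HSCs depend on *Cited2*, which encodes a transcriptional co-regulator that binds CBP and p300. HSCs were sorted from the bone marrow of mice 8 to 12 weeks old as LSK CD48-CD150+ cells, that is Lin- Sca-1+ c-Kit+ cells gated further on both SLAM family proteins. All mice of the series carried the floxed *Cited2* allele (*Cited2* fl/fl). The control mice (Cited2 CTL, which the labels term wildtype) had no Cre, and the other group, not used here, carried *Vav-iCre*, which deletes the floxed gene throughout the hematopoietic system. The libraries were made from polyadenylated RNA and are named CTL 1 to CTL 5 below.

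HSCs are rare bone marrow cells that can both renew themselves and give rise to every blood lineage. In the adult most of them are quiescent and are held in the marrow niche by stem cell factor acting through KIT, angiopoietin acting through TEK, and integrin-mediated adhesion. A set of transcription factors that includes RUNX1, GATA2, TAL1, LYL1, LMO2, ERG, FLI1 and MEIS1 maintains stem cell identity. Their metabolism is usually described as glycolytic, with mitochondria that are present but held at low activity.

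Libraries were compared before any level was read. Total counts ranged from 3058690 in CTL 1 to 4548795 in CTL 5, and the 11909 genes held between 97.5% and 98.8% of them. These totals are far below the average number of sequenced reads per sample that the paper reports. The reason is not given in the sources used here. Pearson's r of log2 levels between libraries, across genes that are not independent replicates, ranged from 0.946 to 0.972. *Xist*, the X-inactivation transcript, had 20, 5211, 63, 5128 and 19 counts in CTL 1 to CTL 5, whereas the Y-linked *Ddx3y* had 565, 0, 916, 0 and 1163 and *Eif2s3y* 618, 2, 756, 1 and 1014. *Uty*, also Y-linked, had 345, 0, 390, 0 and 667 counts. *Kdm5d* had 130, 0, 251, 0 and 426 counts. CTL 2 and CTL 4 therefore carried *Xist* and almost no Y-linked counts, and the other 3 libraries the reverse, while the labels give no sex. CTL 5 stood apart in neutrophil granule genes and CTL 1 in the number of genes lying more than 1 log2 unit below the other 4 libraries (73, against 6 to 28 in each of the others). Some gene levels that rest on a single library are given below with and without it, though none without CTL 1. Levels between genes are compared only as TPM, the unit in which counts are divided by the deposited gene length and rescaled so that all genes sum to the same total in every library, and each mean is followed by the SD over the 5 libraries. With exon lengths from GENCODE M21 in place of the deposited ones, the mean TPM of 80 of 276 named genes changed by more than 1.5 times. The ratios ran from 0.200 to 2.74, with a median of 1.14. TPM are rescaled to a fixed total, so each ratio holds a shift shared by all genes beside the change in the gene's own length. *Mir3064*, *Mir1892*, *mt-Rnr2* and *Ier2* all changed 1.59 times, and the shared part of each ratio was not tested. Levels of different genes are therefore read only coarsely. Of 29 lists of surface, transcription factor and metabolic genes 18 had the same highest gene with either set of lengths, and leading genes are given below with the deposited lengths. An exon of 94 of the 267 named genes that entered the set overlaps another gene in GENCODE M21. Whether the counting used strand is not given in the sources used here, so the reads of such pairs cannot be told apart.

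Transcripts of the positive sort markers c-Kit, Sca-1 and CD150, and of the HSC marker genes *Procr* and *Fgd5*, were present in every library. *Kit* (chr5:75574987-75656722 in GRCm38.p6), the stem cell factor receptor used in the sort, had 300.3, 261, 277, 253 and 239 TPM in CTL 1 to CTL 5 (mean 266 ± 23.4). The endothelial protein C receptor gene *Procr* (chr2:155751125-155755478) had 184, 136, 171, 159 and 179 TPM (mean 166 ± 19.3). *Slamf1* (chr1:171767131-171801184), which encodes the CD150 of the gate, had 91.0, 92.7, 77.5, 94.2 and 115 TPM (mean 94.1 ± 13.4). Each of these genes lay above the median of 50.6 TPM over all 11909 genes in every library. *Fgd5* (chr6:91978827-92076005), a guanine nucleotide exchange factor gene used as an HSC reporter locus, was lower, with 21.8, 21.7, 27.3, 21.5 and 27.1 TPM (mean 23.9 ± 3.04), and lay below that median in every library. *Ly6a*, the gene of Sca-1, had 390.5, 364, 360.0, 359.9 and 404 TPM (mean 376 ± 20.2) and was the highest of the gate genes.

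*Cd48*, whose protein was excluded in the sort, had 43.9, 37.2, 55.3, 30.4 and 58.2 TPM (mean 45.0 ± 11.8). *Slamf1* was above *Cd48* in all 5 libraries with the deposited lengths, but in only 2 of 5 with GENCODE M21 exon lengths. The gate acts on protein, and a transcript level in a sorted bulk sample cannot tell apart fewer cells of a type and less RNA per cell. Of the 8 genes encoding targets of the lineage antibodies, *Ptprc* (CD45, common to nucleated blood cells) had 194 ± 10.9 TPM (95.3 TPM with GENCODE lengths) and *Itgam* (CD11b) 9.06 ± 3.45 TPM. The other 6, *Cd4*, *Cd5*, *Cd8a*, *Ly6g*, *Ly6c1* and *Ly6c2*, had under 10 counts in at least 1 library, and *Ly6g* had 0 counts in all 5, which allows up to 3 counts in each. *Ly6c2* had 2, 9, 21, 7 and 122 counts, so that its mean of 22.6 TPM became 8.05 TPM without CTL 5. *Cited2* itself (chr10:17723228-17725674) had 119, 206, 196, 272 and 198 TPM (mean 198 ± 54.3), lowest in CTL 1 and highest in CTL 4.

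In the deposited counts abundance fell gradually from the highest gene to the lowest, and no gene dominated the libraries. Counts per base had an upper limit, given below, and how far it flattens this order was not tested. The highest gene made up 0.170% of all TPM, the highest 10 genes 0.963%, the highest 100 genes 5.84% ± 0.44, and the highest 1000 genes 31.7% ± 1.18 (SD, n = 5). The 1st and 99th percentiles of mean TPM over the 11909 genes were 2.38 and 441 TPM, a 185-fold span, and 3264 genes reached 100 TPM. *Dnah9*, an axonemal dynein gene, was the lowest at 0.807 ± 0.164 TPM.

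**Figure D1:**
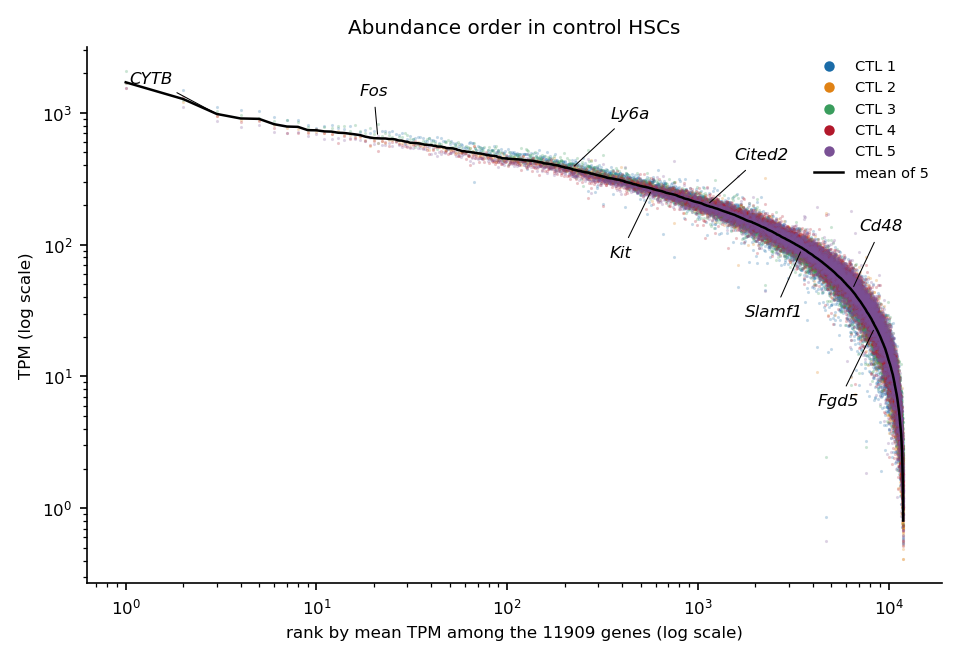
Abundance of the 11909 genes in control HSCs. The x axis is the rank by mean TPM and the y axis is TPM, both on log scales, with a dot for each gene in each of the 5 libraries and the line for the mean. The curve falls from 1704 TPM at rank 1 to 50.6 TPM at the median gene and has no step.

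Both genes at the head of the TPM order were microRNA loci. *Mir3064* had 1693, 1689.6, 2062, 1538 and 1539 TPM (mean 1704 ± 214) and *Mir1892* 1485, 1205, 1245, 1318 and 1109 TPM (mean 1273 ± 141). Their deposited lengths of 67 and 80 bases equal those of the RefSeq hairpins, and each hairpin lies over an exon of a protein-coding gene, *Ddx5* for *Mir3064* and *Sptssa* for *Mir1892*. *Ddx5*, an RNA helicase gene, had 723 TPM and *Sptssa*, a serine palmitoyltransferase subunit gene, 402 TPM. Reads of poly(A) RNA from those exons and from a hairpin cannot be told apart in the counts, so these levels are not levels of mature microRNAs. The hairpins are printed, from the RefSeq GRCm38.p6 tables, because they show what a count over so short a feature covers. They are in lower case throughout, because no stretch of them was measured apart from the rest.
Mir3064 hairpin, chr11:106782693-106782759, minus strand: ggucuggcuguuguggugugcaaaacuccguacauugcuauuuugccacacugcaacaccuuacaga
Mir1892 hairpin, chr12:54645933-54646012, minus strand: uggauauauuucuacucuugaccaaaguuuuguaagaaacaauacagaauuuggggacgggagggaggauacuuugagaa

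Below these the order was led by mitochondrial and antigen presentation transcripts. Cytochrome b (*CYTB*) had 981 ± 93.9 TPM and the complex I subunits *ND1* and *ND5* had 899.8 ± 82.3 and 737 ± 31.6 TPM. *B2m*, the light chain of MHC class I, had 906 ± 106 TPM and the class I heavy chain *H2-K1* 819.6 ± 84.4 TPM. *Rgs1*, a regulator of G-protein signalling, had 787 ± 89.9 TPM, which became 239.7 TPM with GENCODE lengths. Mitochondrial 16S rRNA (*mt-Rnr2*) had 782 ± 82.8 TPM and the ribosomal protein gene *Rpl4* 739 ± 57.7 TPM. Housekeeping genes followed closely, with *Actb* at 694 ± 69.5 and *Tmsb4x* (thymosin beta-4) at 677 ± 44.7 TPM, whereas *Gapdh* had 167 ± 14.8 TPM, or 79.3 TPM with GENCODE lengths. The 82 ribosomal protein genes of the set, out of 87 in the table, had a median of 367 TPM, and all 87 summed to 30588 ± 2657 TPM.

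Ordered by CPM, counts divided by the library total with no regard to length, the list was a different one. *Rn45s*, the ribosomal RNA precursor, came first, followed by *Ddx5*, *Adgrg1*, *Ncl* (nucleolin), *Kcnq1ot1*, *Angpt1*, *Hnrnpu*, *Ivns1abp*, *Serinc3* and *Hsp90ab1*. *Adgrg1* encodes the adhesion receptor GPR56 and *Angpt1* the ligand of TEK, and they had 479 ± 41.9 and 418 ± 29.6 TPM. *Kcnq1ot1*, a very long antisense RNA of the imprinted *Kcnq1* locus, was high per library but low per base, at 20.9 ± 0.238 TPM. The highest 100 genes by TPM and by CPM shared 30 genes, and their median lengths were 1140.5 and 3608.5 bases against 2847 bases over the set.

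Counts per base, on which TPM rest, had an upper limit. Among genes of at least 200 bases none exceeded 2 counts per base on average, 20 exceeded 1, and the highest was *CYTB* with 1.55. CTL 5 held 1.49 times the total counts of CTL 1. For the 4071 genes with 0.03 to 0.1 counts per base CTL 5 held 1.64 times the counts of CTL 1, and for the 23 genes above 1 count per base 1.22 times. The ratio was thus lowest at the head of the order. How far this lowers the TPM of the most abundant genes, and the ratios among them, was not tested. Whether identical reads were collapsed before counting is not given in the sources used here, nor is the reason why total counts are far below the reads sequenced.

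Genes of metabolism lay higher than those of receptors and transcription factors, with either set of gene lengths. Of the 413 metabolic genes looked for, 383 entered the set, with a median of 125 TPM. Surface receptors and adhesion molecules gave 186 of 328 genes with a median of 38.9 TPM, and transcription factors 211 of 318 genes with a median of 43.4 TPM. The metabolic genes thus stood above the median of 50.6 TPM over all genes of the set and the other classes slightly below it. With GENCODE lengths, an alternative added after the data were seen, the medians were 98.5, 40.9 and 45.3 TPM for metabolism, surface and transcription factors, against 50.9 TPM over all genes with such a length. Since a gene needed 10 counts in every library to enter, each median covers only the members that were measured at that depth.

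**Figure D2:**
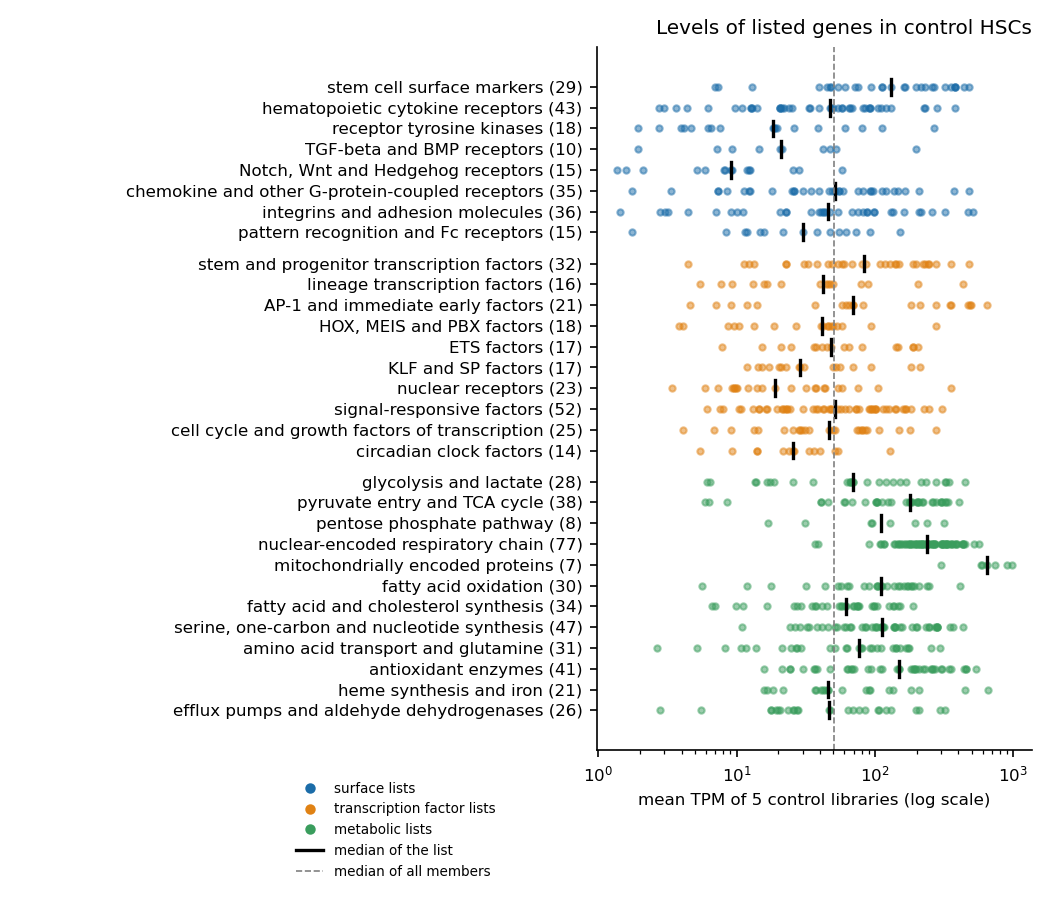
Levels of the gene lists. The x axis is mean TPM over the 5 control libraries on a log scale, each dot is a member of the set, the black bars are list medians and the dashed line is the median of all 11909 genes, 50.6 TPM. Mitochondrially encoded genes, the nuclear-encoded respiratory chain and the TCA cycle lie to the right, and Notch, Wnt and Hedgehog receptors to the left.

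Stem cell surface markers were the highest of the receptor lists. Of 31 genes 29 entered the set, with a median of 129.8 TPM. *Adgrg1* led at 479 ± 41.9 TPM, and the tetraspanin genes *Cd81* (437 ± 30.7 TPM) and *Cd63* (377 ± 25.7 TPM) were among the next. *Cd34*, which is low on the surface of long-term mouse HSCs, had 355 ± 17.5 TPM, and *Cd9* 319 ± 30.0 TPM. *Vwf*, von Willebrand factor, which marks a platelet-biased fraction of HSCs, had 33.0, 41.6, 30.3, 39.1 and 44.9 TPM (mean 37.8 ± 6.05), below the median gene and within a narrow range.

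Of 61 cytokine receptor genes 43 entered the set, with a median of 47.5 TPM, close to that of all genes of the set. The common gamma chain *Il2rg* had 278 ± 24.1 TPM, the TNF family receptor genes *Cd27* and *Tnfrsf1a* had 230.2 ± 12.9 and 130.3 ± 5.62 TPM, and the interferon gamma receptor gene *Ifngr1* had 225 ± 18.1 TPM. Of the type I interferon receptor chains, *Ifnar2* (91.2 ± 14.3 TPM) was above *Ifnar1* (54.3 ± 5.01 TPM) in all 5 libraries, by 1.68 times on the means. *Csf2ra*, the GM-CSF receptor alpha chain, had 48.3 ± 6.80 TPM against 21.9 ± 2.62 TPM for the shared beta chain *Csf2rb*, a ratio of 2.21 that also held its order in all 5 libraries. The lineage receptors were lower. *Csf3r*, the G-CSF receptor gene, had 69.8, 53.7, 55.5, 53.4 and 57.5 TPM, with CTL 1 above the other 4. *Epor*, the erythropoietin receptor gene, had 30.8, 31.8, 35.7, 27.0 and 42.1 TPM (mean 33.5 ± 5.72). The M-CSF receptor gene *Csf1r* had 0, 9, 16, 20 and 15 counts and *Il7r*, the receptor of lymphoid progenitors, 0, 28, 48, 13 and 1 counts. Neither entered the set, and *Il7r* fell from 3.65 to 1.94 TPM without CTL 3.

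Of 46 receptor tyrosine kinase genes 18 entered the set (39.1%, against 45.5% of all genes of the table), with a median of 18.4 TPM. After *Kit* came *Tie1* (113 ± 3.83 TPM), *Flt3* (80.1 ± 12.2 TPM), *Tek* (60.2 ± 8.93 TPM) and the insulin receptor gene *Insr* (38.4 ± 8.46 TPM). *Flt3*, whose protein marks multipotent progenitors more than HSCs, had 86.5, 64.5, 74.2, 78.4 and 96.8 TPM and lay below *Kit* in every library. *Tie1*, an orphan receptor related to TEK, exceeded *Tek* 1.88-fold on the means and in all 5 libraries. The TEK ligand *Angpt1* was thus present at 418 TPM beside 60.2 TPM of its receptor.

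Receptors of developmental ligands were low. The TGF-beta and BMP receptor list (10 of 14 genes, median 20.9 TPM) was led by the co-receptor endoglin, with *Eng* at 199 ± 13.3 TPM, whereas the signalling receptor genes *Tgfbr2* and *Tgfbr1* had 47.4 ± 5.49 and 42.1 ± 7.08 TPM. *Tgfbr3*, betaglycan, had 47.7, 44.2, 50.1, 48.3 and 69.0 TPM, with CTL 5 above the other 4. Of the Notch, Wnt and Hedgehog receptors 15 of 22 entered the set, with a median of 9.0 TPM, the lowest of the receptor lists. *Notch2* (57.7 ± 6.27 TPM) exceeded *Notch1* (12.4 ± 4.51 TPM) 4.66-fold and in all 5 libraries. *Smo*, the Hedgehog signal transducer, had 28.3 ± 4.21 TPM and the Wnt receptor genes *Fzd6* and *Lrp6* had 25.7 ± 2.73 and 12.4 ± 2.30 TPM.

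Among G-protein-coupled receptors 35 of 83 genes entered the set, with a median of 51.5 TPM. Adhesion and orphan receptors led it, with *Adgrl4* at 371 ± 23.4 TPM and *Gpr171* at 208 ± 15.8 TPM after *Adgrg1*. The thrombin receptor gene *F2r* had 164 ± 14.3 TPM and the prostaglandin E2 receptor gene *Ptger3* 146 ± 22.6 TPM. *Cxcr4*, the receptor for the niche chemokine CXCL12, was low, at 19.1, 11.9, 12.8, 6.17 and 12.9 TPM (mean 12.6 ± 4.60). Its lowest and highest libraries differed widely, and all 5 lay below the median gene.

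Adhesion molecules (36 of 52 genes, median 45.6 TPM) were led by *Cd47*, the signal that protects cells from phagocytosis, at 512 ± 21.4 TPM. *Cd47* was above *Cd24a* in 4 of 5 libraries and in 0 of 5 with GENCODE lengths, where it had 249 TPM. *Cd24a*, *Cd164* (the sialomucin endolyn) and *Esam*, an endothelial adhesion molecule also present on HSCs, had 468 ± 33.2, 320.1 ± 16.5 and 257 ± 9.03 TPM. Of the integrins 9 of 17 alpha chains and 6 of 8 beta chains entered the set. *Itga2b* (CD41) was the highest alpha chain at 163 ± 14.8 TPM and *Itgb1* the highest beta chain at 215 ± 5.67 TPM. Of pattern recognition and Fc receptors 15 of 35 genes entered, with a median of 30.0 TPM. The signalling adaptor *Fcer1g* had 152 ± 18.6 TPM, the neonatal Fc receptor gene *Fcgrt* 92.4 ± 10.3 TPM and *Tlr4*, the receptor for lipopolysaccharide, 62.0 ± 18.1 TPM.

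**Figure D3:**
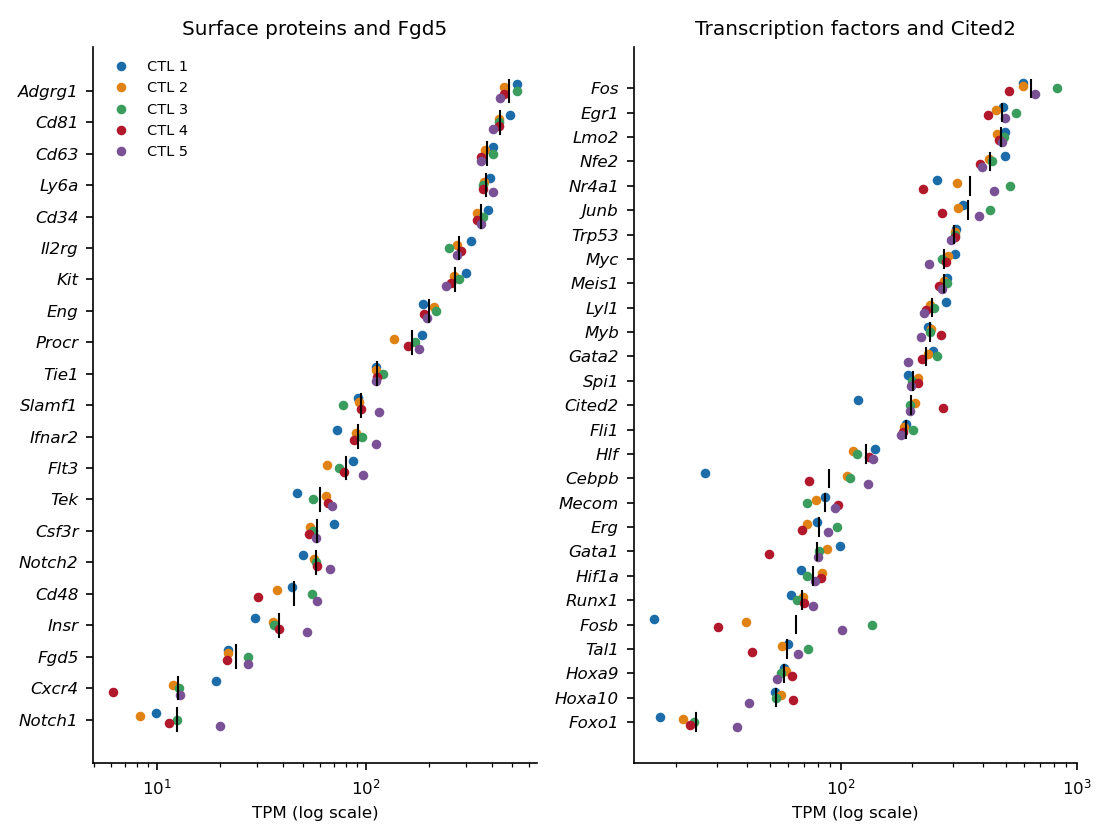
Named surface receptors with *Fgd5*, and transcription factors with *Cited2*, in separate panels, for the 5 control libraries. The TPM axis on x is logarithmic, each dot is a library, the black bar is the mean, and genes are sorted by the mean. Most genes span a narrow range over the libraries, and the dots of *Fosb* (16.1 to 136 TPM) and *Cebpb* (26.7 to 130.4 TPM) spread the furthest among the factors shown.

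Transcription factors of HSC identity were nearly all measured. Of 33 stem and progenitor factors 32 entered the set, with a median of 83.3 TPM, against 16 of 29 lineage factors with a median of 42.1 TPM. *Lmo2*, the bridging subunit of the TAL1 and GATA2 complex, had 496, 461, 490.3, 469.6 and 481 TPM (mean 479.6 ± 14.4) and the highest mean. *Meis1*, a HOX cofactor, had 274 ± 9.16 TPM, *Lyl1*, a basic helix-loop-helix factor, 244 ± 21.1 TPM, *Myb* 240.4 ± 17.2 TPM and *Gata2* 231 ± 25.2 TPM. Their partners were lower, with *Mecom* (EVI1) at 85.6 ± 10.7 TPM, *Erg* at 81.0 ± 11.5 TPM, *Runx1* at 68.6 ± 5.47 TPM and *Tal1* at 59.4 ± 11.5 TPM. *Mllt3*, a chromatin reader that supports HSC expansion, had 95.7 ± 9.10 TPM.

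Among the lineage factors *Nfe2*, which drives platelet formation, was the highest at 429 ± 43.4 TPM, and the myeloid factor gene *Spi1* (PU.1) had 204 ± 8.90 TPM. *Gata1*, an erythroid and megakaryocytic GATA factor gene, had 99.5, 87.8, 81.1, 49.5 and 80.6 TPM (mean 79.7 ± 18.5), below *Gata2* in every library. *Gata3* had 49.9 ± 9.65 TPM. The B-lineage factor genes *Ebf1* and *Pax5* and the granulocytic *Cebpa* each had fewer than 10 counts in at least 1 library. *Ebf1* had 9, 4, 6, 2 and 10 counts in CTL 1 to CTL 5. *Pax5* had 0, 0, 3, 6 and 5 counts. *Cebpa* had 9, 28, 11, 23 and 7 counts. In TPM, at such low counts, *Cebpa* was above both B-lineage factor genes in CTL 2 (6.36 TPM), CTL 3 (2.93 TPM) and CTL 4 (5.14 TPM).

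HOX genes were read mainly from the A cluster. Of 11 *Hoxa* genes 6 entered the set, of 10 *Hoxb* genes 3, and of 9 *Hoxc* and 9 *Hoxd* genes 0. *Hoxa9* (57.5 ± 3.05 TPM), *Hoxa10* (53.0 ± 7.90 TPM) and *Hoxa7* (49.5 ± 6.29 TPM) led them. *Hoxb5*, used as an HSC reporter locus, had 13.3 ± 1.91 TPM, whereas *Hoxb4*, known for HSC expansion when overexpressed, had 2, 2, 5, 7 and 16 counts. With the MEIS, PBX and TGIF genes the list gave 18 of 50 genes with a median of 41.2 TPM, led by *Meis1* and by *Tgif1* at 93.4 ± 11.4 TPM.

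ETS factors (17 of 26 genes, median 48.4 TPM) were led by *Spi1*, *Elf1* (189 ± 6.62 TPM) and *Fli1* (188 ± 9.10 TPM), with *Etv6*, required for HSC survival in the marrow, at 143 ± 9.04 TPM. KLF and SP factors (17 of 26, median 28.6 TPM) were led by *Klf6* (209.7 ± 54.8 TPM) and *Klf10* (181 ± 37.4 TPM). Nuclear receptors (23 of 46, median 19.0 TPM) were led by *Nr4a1*, with the oxysterol receptor gene *Nr1h2* at 105 ± 9.90 TPM and the glucocorticoid receptor gene *Nr3c1* at 74.8 ± 10.8 TPM. Of the clock genes 14 of 17 entered (median 25.6 TPM), led by *Hlf*, a PAR bZIP factor that marks HSCs, at 128 ± 11.9 TPM, well above the core clock gene *Arntl* (BMAL1) at 51.0 ± 11.3 TPM.

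Signal-responsive factors (52 of 61 genes, median 51.0 TPM) were led by *Trp53* (303 ± 6.10 TPM), the stress factors *Atf4* (245 ± 43.4 TPM) and *Xbp1* (224 ± 23.8 TPM), *Stat4* (181 ± 23.4 TPM) and *Nfe2l2* (169 ± 13.3 TPM). *Trp53* was above *Atf4* in 4 of 5 libraries, and in 0 of 5 with GENCODE lengths. *Hif1a*, the oxygen-sensitive factor whose binding to CBP and p300 is limited by CITED2, had 68.1, 83.0, 71.9, 82.3 and 77.7 TPM (mean 76.6 ± 6.51). FOXO factors, which restrain growth in HSCs, were lower. *Foxo1* had 17.2, 21.6, 24.0, 23.0 and 36.3 TPM and *Foxo3* 21.9, 10.6, 24.3, 9.38 and 15.1 TPM, and the order of this pair held in only 3 of 5 libraries. Growth factors of transcription (25 of 30, median 46.5 TPM) included *Myc* at 275 ± 25.6 TPM and *Mycn* at 149.5 ± 15.6 TPM, with *Myc* above *Mycn* in all 5 libraries.

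Immediate early genes, which cells switch on within minutes of stimulation, included abundant members and members that were uneven between libraries. The median BCV of the list, the relative SD between libraries defined below, was 18.7% against 15.4% over all genes of the set. It was higher for nuclear receptors (24.6%) and lineage factors (22.3%). These lists differ in abundance, whose part in the BCV was not tested. Of the 26 AP-1 and immediate early genes 21 entered the set, with a median of 68.9 TPM, which became 129 TPM with GENCODE lengths. *Fos* had 640.0 ± 117 TPM, *Ier2* 492 ± 47.5 TPM, *Egr1* 484 ± 49.6 TPM, *Jun* 469 ± 61.0 TPM and *Nr4a1*, an orphan nuclear receptor gene that restrains HSC proliferation, 352 ± 128 TPM. *Dusp1*, a MAP kinase phosphatase gene induced alongside them, had 436 ± 61.6 TPM, and *Junb* had 346 ± 63.2 TPM. *Fosb* had 16.1, 39.8, 136, 30.3 and 102 TPM in CTL 1 to CTL 5, *Nr4a2* 12.4, 19.1, 48.6, 33.4 and 69.5 TPM and *Nr4a1* 255, 313, 525, 224 and 445 TPM. CTL 3 and CTL 5 were the high libraries for all of these, and CTL 1 or CTL 4 the lowest. *Sik1*, a salt-inducible kinase gene induced by cAMP, had 27.7, 54.2, 103, 24.8 and 104 TPM and *Nfkbid*, a nuclear regulator of NF-kappaB, 36.9, 66.5, 131, 61.5 and 161 TPM, with the same libraries high. Summed over the list the level was 3689, 3789, 4808, 3282 and 4174 TPM. Of the 21 genes 12 were highest in CTL 3 and 11 were lowest in CTL 4, whereas CTL 3 was highest for 16.2% and CTL 4 lowest for 17.9% of all 11909 genes. *Atf3*, a stress-induced factor gene, had 5.85, 4.54, 36.5, 13.4 and 9.41 TPM, and its mean of 13.95 TPM became 8.30 TPM without CTL 3.

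Promoters of some uneven immediate early genes are shown because this class of genes is known for control through the cAMP response element. The genes were picked by hand, and others such as *Sik1* and *Atf3* are not shown. The printed promoters therefore do not stand for the class. The 250 bases upstream of the RefSeq start are printed 5′ to 3′ on the strand of the gene, from RefSeq GRCm38.p6, and capitals mark the core TGACG or its reverse complement CGTCA, which together make up the full palindrome.
Fosb, chr7:19310046-19310295, minus strand: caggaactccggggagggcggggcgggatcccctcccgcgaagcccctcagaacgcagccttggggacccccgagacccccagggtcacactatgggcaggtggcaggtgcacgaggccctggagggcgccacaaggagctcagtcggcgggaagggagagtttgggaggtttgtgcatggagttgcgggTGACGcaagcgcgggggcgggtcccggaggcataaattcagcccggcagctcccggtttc
Nr4a2, chr2:57124004-57124253, minus strand: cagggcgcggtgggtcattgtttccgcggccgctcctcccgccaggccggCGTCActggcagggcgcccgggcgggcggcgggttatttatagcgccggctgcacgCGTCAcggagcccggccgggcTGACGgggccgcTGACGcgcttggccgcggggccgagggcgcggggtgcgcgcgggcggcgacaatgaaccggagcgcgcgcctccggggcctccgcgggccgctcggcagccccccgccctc
Nr4a1, chr15:101266596-101266845, plus strand: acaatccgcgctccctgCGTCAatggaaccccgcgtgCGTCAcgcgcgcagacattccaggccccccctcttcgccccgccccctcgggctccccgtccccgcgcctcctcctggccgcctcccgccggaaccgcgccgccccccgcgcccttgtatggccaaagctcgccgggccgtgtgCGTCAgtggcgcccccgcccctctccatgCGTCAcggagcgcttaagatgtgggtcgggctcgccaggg
Nfkbid, chr7:30422156-30422405, plus strand: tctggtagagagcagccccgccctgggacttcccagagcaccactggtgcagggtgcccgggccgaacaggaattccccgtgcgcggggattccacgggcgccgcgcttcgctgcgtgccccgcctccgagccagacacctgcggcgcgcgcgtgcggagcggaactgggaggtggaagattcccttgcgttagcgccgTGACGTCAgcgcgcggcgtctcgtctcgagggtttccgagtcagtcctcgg
The cores numbered 1 in *Fosb*, 4 in *Nr4a2*, 4 in *Nr4a1* and 2 in *Nfkbid*, and the 2 of *Nfkbid* overlap in the full TGACGTCA. Of the 21 immediate early genes of the set 16 had a promoter in the table. Of those, 11 (68.8%) held at least 1 core in any of their windows and 5 held none. Among all 32851 promoter windows of this length 17.8% held at least 1 core, and among the 11929 windows of genes of the set 26.8%. The share of 68.8% counts genes and the other shares count windows. A gene with several windows had more chances to be counted, so these shares are not alike in unit. At least 3 cores were held by 0.688% of all windows and 1.48% of windows of the set, and the full site by 1.55% and 2.51%. The core holds a CpG, and the printed windows were rich in G and C (68.8% in *Fosb*, 80% in *Nr4a2*, 74.4% in *Nr4a1* and 70% in *Nfkbid*), against medians of 52.4% over all windows and 59.6% over those of the set. The part of base composition in these shares was not tested. *Nfkbid* has 3 windows in the table, and 1 of them is printed, with no other holding more cores. A match is a run of letters, and binding was not measured.

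Glycolysis and the pathways it feeds were expressed throughout. Of 33 glycolytic and lactate genes 28 entered the set, with a median of 69.0 TPM. Lactate dehydrogenase A (*Ldha*) had 446 ± 40.0 TPM, pyruvate kinase (*Pkm*) 342 ± 28.5 TPM, aldolase (*Aldoa*) 328 ± 24.9 TPM, triosephosphate isomerase (*Tpi1*) 321 ± 26.7 TPM and enolase (*Eno1*) 274 ± 18.7 TPM. Among paralogs the order was the same in all 5 libraries, and also with GENCODE lengths. *Hk1* had 108 TPM, 3.03 times *Hk3*, or 1.80 times with GENCODE lengths, and *Hk2*, the hypoxia-inducible hexokinase gene, had 13.8 TPM. The high-affinity glucose transporter gene *Slc2a3* exceeded *Slc2a1* 1.82-fold (1.35-fold with GENCODE lengths), with 120.2 against 66.2 TPM. *Ldha* exceeded *Ldhb* (234 TPM) 1.91-fold (1.36-fold with GENCODE lengths).

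Pyruvate dehydrogenase kinases restrain the entry of pyruvate into mitochondria, and the 4 paralogs were ordered alike in every library. *Pdk3* had 272, 251, 237, 270.0 and 274 TPM and was the highest. *Pdk1*, a target of HIF1A, followed at 83.8, 112, 101, 111 and 101 TPM, and *Pdk2* at 45.3, 55.8, 59.5, 67.4 and 69.7 TPM. *Pdk4*, the starvation-induced paralog, was lowest at 4.69, 7.81, 17.1, 6.48 and 6.77 TPM, where CTL 3 stood above the other 4. The ratios of the means were 2.56 for *Pdk3* to *Pdk1*, 1.71 for *Pdk1* to *Pdk2* and 6.96 for *Pdk2* to *Pdk4*.

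TCA cycle and pyruvate entry genes lay above the glycolytic list, with 38 of 40 in the set and a median of 178 TPM. With GENCODE lengths the medians were 138 TPM for this list and 84.9 TPM for glycolysis. Subunits of isocitrate dehydrogenase led it, with *Idh3g* at 406 ± 17.2 TPM, *Idh2* at 319 ± 9.94 TPM and *Idh3b* at 306 ± 16.0 TPM, beside malate dehydrogenase (*Mdh2*, 337 ± 28.6 TPM) and the succinate dehydrogenase subunit *Sdha* (324 ± 8.09 TPM). All 8 pentose phosphate genes entered, with a median of 111 TPM. The transaldolase gene *Taldo1* (315 ± 19.8 TPM) and the transketolase gene *Tkt* (239 ± 17.6 TPM) of the non-oxidative branch were the highest, followed by *Pgls* (196 ± 17.6 TPM) and *Pgd* (127 ± 16.2 TPM) of the oxidative branch and the non-oxidative *Rpe* (94.6 ± 12.4 TPM).

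All 77 nuclear-encoded respiratory chain genes entered the set, with a median of 239 TPM. The 37 genes of complex I had a median of 227 TPM and the 15 of the ATP synthase 320.2 TPM, and every gene of complexes II, III and IV was present as well. *Atp5b* had 562 ± 42.6 TPM, *Cox4i1* 517 ± 45.8 TPM and *Ndufa4* 444 ± 37.7 TPM. *Cycs*, the somatic cytochrome c gene, was the lowest of the 77 at 36.6 TPM. Of the 13 mitochondrially encoded protein genes 7 entered the set, with a median of 643 TPM. *COX1* had 643 ± 60.5 TPM and *ND6* 589 ± 41.5 TPM. *COX2* by contrast had 2, 2, 6, 5 and 6 counts, *COX3* 4, 6, 5, 2 and 9 counts and *ATP6* 8, 6, 10, 12 and 10 counts, and *ATP8*, *ND3* and *ND4L* were also near 0. Since *COX1*, *COX2*, *COX3* and *ATP6* are read from a shared polycistronic transcript, the values of the near-0 genes are not read here as expression levels. Mitochondrially encoded proteins made up 0.237% ± 0.0195 of counts, and the share rests on the 7 counted genes.

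Fatty acid oxidation genes (30 of 33, median 111 TPM) were led by the electron transfer flavoprotein genes *Etfb* (408 ± 18.5 TPM) and *Etfa* (246 ± 26.7 TPM) and the acyl-CoA dehydrogenase genes *Acadl* (237 ± 9.67 TPM) and *Acadm* (209 ± 20.7 TPM). Synthesis of fatty acids and cholesterol was lower (34 of 36, median 61.2 TPM), with the regulator *Srebf2* at 188 ± 6.36 TPM and the elongase gene *Elovl1* at 152 ± 11.6 TPM. All 47 serine, one-carbon and nucleotide genes entered (median 112 TPM). *Mat2a*, which makes S-adenosylmethionine, had 431 ± 22.4 TPM, *Hprt*, of purine salvage, 364 ± 9.07 TPM, *Paics*, of purine synthesis, 349 ± 21.9 TPM and *Phgdh*, the entry enzyme of serine synthesis, 282 ± 18.1 TPM. Amino acid transport and glutamine genes gave 31 of 34 with a median of 76.9 TPM, led by the polyamine enzyme genes *Sat1* (297 ± 14.7 TPM) and *Srm* (255 ± 27.2 TPM).

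Antioxidant genes (41 of 43) stood above the median gene, with a median of 149 TPM and of 107 TPM with GENCODE lengths. *Gpx1*, glutathione peroxidase, had 538 ± 44.3 TPM, *Sod1*, cytosolic superoxide dismutase, 456 ± 44.1 TPM, *Txnip*, a thioredoxin-binding protein that limits glucose uptake, 453 ± 45.2 TPM, and the peroxiredoxin genes *Prdx2* and *Prdx1* had 436 ± 30.5 and 357 ± 25.8 TPM. The iron storage genes *Fth1* (660.0 ± 58.2 TPM) and *Ftl1* (444 ± 38.6 TPM) led the heme and iron list, whose median was 45.9 TPM (21 of 23 genes). Of efflux pumps and aldehyde dehydrogenases 26 of 31 entered (median 46.8 TPM). *Abcg2*, the pump behind the side population phenotype of HSCs, had 201, 186, 189, 246 and 219.5 TPM (mean 208 ± 24.9), and *Aldh2*, which clears acetaldehyde, and *Aldh1a1*, a retinaldehyde dehydrogenase gene, had 319.8 ± 18.6 and 197 ± 18.1 TPM.

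Markers of other cell types entered the set at shares from 10% for B cells to 93.8% for megakaryocytes and platelets, against 45.5% of all genes of the table. Of 10 B cell genes 1 entered the set (*Cd79b*, an antigen receptor subunit, 112 ± 24.5 TPM). Of 16 T and NK cell genes 3 entered, led by the cytotoxic granule gene *Nkg7* at 204 ± 51.0 TPM, and the CD3 chain genes *Cd3d*, *Cd3e* and *Cd3g* had at most 5 counts in any library. Of 13 erythroid genes 5 entered, led by carbonic anhydrase 2 (*Car2*, 569 ± 51.5 TPM). Carbonic anhydrase 1 (*Car1*) had 8.66, 67.7, 10.7, 16.5 and 87.7 TPM, and the adult globin gene *Hbb-b1* 66.1 ± 13.01 TPM. In contrast 15 of 16 megakaryocyte and platelet genes entered, which summed to between 1423 and 1685 TPM. Platelet factor 4 (*Pf4*) had 361 ± 30.8 TPM in that list. Of 12 monocyte and macrophage genes 6 entered, with *Lyz2* at 512 ± 35.8 TPM but *Csf1r* near 0, and of 12 stromal genes 4, among them the collagen gene *Col1a2* at 4.28 ± 2.06 TPM.

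Granulocyte genes were highest in CTL 5. Summed over the 13 genes of the list the level was 513, 577, 1092, 838 and 2027 TPM in CTL 1 to CTL 5. *Mpo*, myeloperoxidase, had 33, 42, 31, 82 and 867 counts, the neutrophil elastase gene *Elane* 8, 3, 6, 20 and 285, the cathepsin G gene *Ctsg* 4, 9, 1, 6 and 164 and the lactoferrin gene *Ltf* 0, 12, 61, 50 and 264. CTL 5 was far above the other 4 for each. Without that library the mean TPM went from 45.7 to 11.8 for *Mpo*, from 38.1 to 6.51 for *Elane*, from 19.9 to 3.17 for *Ctsg* and from 16.0 to 7.24 for *Ltf*. The alarmin genes *S100a8* and *S100a9* of mature neutrophils were graded, with 80.7, 147, 301, 239 and 431 TPM for *S100a8* and a mean of 164 ± 116 TPM for *S100a9*, both lowest in CTL 1 and highest in CTL 5. *Prtn3*, proteinase 3, which HSCs and early progenitors also transcribe, did not follow, with 330.2, 293, 299, 271 and 323 TPM. *Dntt*, the terminal transferase of lymphoid progenitors, had 11, 0, 3, 9 and 119 counts and went from 7.43 to 1.87 TPM without CTL 5. Whether other levels of CTL 5 move with these genes was not tested.

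Cell cycle genes were present from both sides. All 28 genes of dividing cells entered the set, led by replication genes, with *Mcm6* at 405 ± 15.6 TPM and *Pcna* at 311 ± 20.5 TPM. The proliferation marker *Mki67* had 26.4, 40.0, 50.7, 46.4 and 61.3 TPM (mean 45.0 ± 12.96). Its mean became 71.6 TPM with GENCODE lengths, a change of 1.59 times like that of *Mir3064* and *Ier2* above. Of 18 quiescence and inhibitor genes 16 entered. *Cdkn1c* (p57), which holds HSCs in quiescence, had 75.1, 64.2, 65.7, 67.6 and 78.3 TPM and *Cdkn1a* (p21) 45.3, 43.2, 75.5, 37.8 and 108 TPM, so that their order held in only 3 of 5 libraries, while *Cdkn2a* had 0 counts in all 5. *Cdk4* (447 TPM) exceeded *Cdk6* (155 TPM), the other kinase of the D-type cyclins, 2.88-fold, and 6.77-fold with GENCODE lengths, where *Cdk6* had 43.5 TPM. Among D cyclins *Ccnd3* (253 ± 20.0 TPM) and *Ccnd2* (171 ± 11.8 TPM) were above *Ccnd1* (43.6 ± 5.79 TPM) in all 5 libraries, and the order of *Ccnd3* and *Ccnd2* reversed in all 5 with GENCODE lengths.

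The spread between libraries was expressed as the biological coefficient of variation (BCV), edgeR's estimate of the relative SD between libraries beyond counting error. Its median over the 11909 genes was 15.4%, with 8.81% and 33.5% at the 5th and 95th percentiles. In quintiles of abundance the median BCV was 28.7%, 20.0%, 14.9%, 11.5% and 9.56% from the lowest to the highest, and counting error alone, as a coefficient of variation (CV), was 15.6% in the lowest and 3.80% in the highest. Low genes were thus the least certain by either measure. For 961 genes (8.07%) the observed CV was below the counting CV, and 32 genes had a BCV above 50%. Median BCV was 11.7% for the nuclear-encoded respiratory chain, 11.7% for all metabolic genes, 16.5% for transcription factors and 18.1% for surface receptors. The classes with the higher BCV are also those with the lower median TPM, and the part of abundance in this order was not tested.

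**Figure D4:**
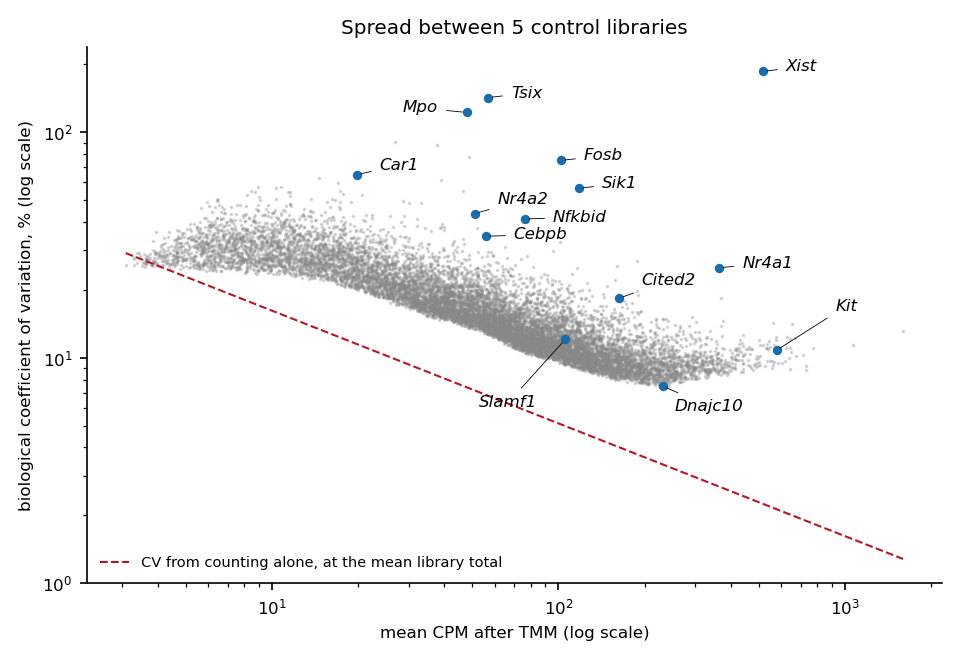
Spread between the 5 control libraries against abundance. The x axis is mean CPM and the y axis is BCV in percent, both on log scales, each dot is a gene, and the red dashed line is the CV that counting error alone gives. The median falls from 28.7% in the lowest quintile of abundance to 9.56% in the highest, and *Xist*, *Tsix* and *Fosb* stand above the cloud.

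Among the 6674 genes with a mean of at least 50 CPM the largest BCV belonged to *Xist* (186%) and its antisense partner *Tsix* (142%), which divide the libraries as the Y-linked genes do. The next were the immediate early genes *Fosb* (75.1%), *Sik1* (56.5%), *Nr4a2* (43.6%) and *Nfkbid* (41.3%). *Zfp54*, a zinc finger gene, had a BCV of 37.7%, *Cebpb*, a myeloid and stress-responsive factor gene, 34.6%, *Pitpna*, a lipid transfer protein gene, 32.5% and *Lrrc47* 30.9%. *Cebpb* had 26.7, 106, 109.6, 73.2 and 130.4 TPM, lowest in CTL 1 and highest in CTL 5, with CTL 3 and CTL 2 close to each other below it. *Kdm6a*, an X-linked histone demethylase gene that escapes X inactivation, had 36.9, 95.9, 61.6, 101 and 68.5 TPM, highest in CTL 2 and CTL 4, the libraries with *Xist*. The 387 X-linked genes of the set together made up between 3.14% and 3.26% of TPM in each library.

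**Figure D5:**
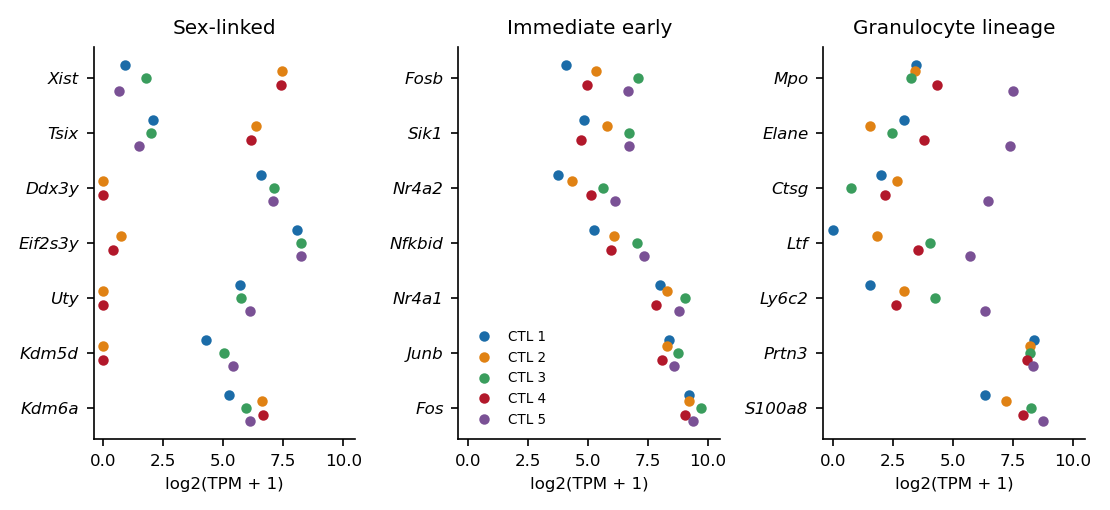
Genes with the widest spread between libraries, in panels for sex-linked transcripts, immediate early genes and granulocyte genes. The x axis is log2(TPM + 1), each row is a gene and each dot is a library, coloured by library. *Xist* is high in CTL 2 and CTL 4, *Fosb* is high in CTL 3 (136 TPM) and CTL 5 (102 TPM), and *Mpo* is high in CTL 5 (181 TPM).

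The lowest BCV in the same abundance range belonged to *Psme3* (7.46%), an activator of the nuclear proteasome, *Dnajc10* (7.47%), a reductase chaperone of the endoplasmic reticulum, *Prps1* (7.51%), which makes the ribose substrate of nucleotide synthesis, *Dcaf8*, *Phactr2*, *Ipo5* (a nuclear import receptor), *Sppl2a* (an intramembrane protease), *Hprt*, *Ppt1* (a lysosomal thioesterase) and *Pitpnc1*. Their BCV lay between 7.46% and 7.64%. The estimate for each gene is pulled towards that of genes of like abundance. Values this close therefore do not rank these genes, and they can exceed the spread of the gene itself. *Hprt* had 349, 361, 366, 370.2 and 372 TPM and *Psme3* 212, 211, 216, 212 and 216 TPM. The largest BCV among surface receptors belonged to *Clec7a* (dectin-1, 52.8%, 6.78, 12.6, 8.01, 49.1 and 32.4 TPM), *Prlr* (prolactin receptor, 48.9%) and *Bmpr1a* (46.8%), and among metabolic genes to the cystine transporter gene *Slc7a11* (56.7%), *Gpt2* (53.5%), an alanine aminotransferase gene, and *Gpx8* (47.4%). Except for *Clec7a* and *Gpx8*, at 21.8 and 21.2 TPM, these were low genes with means of 2.66 to 11.7 TPM, where the median BCV is high. Without CTL 5 the mean of *Gpx8* went from 21.2 to 14.1 TPM, and without CTL 3 that of *Slc7a11* from 2.66 to 1.46 TPM.

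Most neighbours in the order of levels did not stand apart. Of 278 neighbouring pairs among the highest genes overall and the highest members of each list, 119 stood in the same order in all 5 libraries, and for 71 the ranges over libraries did not overlap. With GENCODE M21 exon lengths in place of the deposited ones, 76 of those 119 pairs kept the order in all 5 libraries and 19 reversed in all 5. Both genes had such a length in 264 of the 278 pairs. The remaining pairs, some of the 119 among them, could not be checked. The pairs *Esam* and *Itgb1*, *Cd34* and *Cd9*, *Meis1* and *Lyl1*, and *Spi1* and *Elf1* were among the reversed ones. With those lengths *Foxo1* lay above *Foxo3*, and *Cdkn1c* above *Cdkn1a*, in all 5 libraries.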

How the data were processed

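The series holds bulk RNA-seq of sorted mouse HSCs, and only the 5 control libraries were used. The authors deposited raw counts per gene and a length for each gene. The submitters' processing notes name HISAT2 and mm10. Counting settings, the handling of duplicate and multi-mapped reads, strand and the definition of the gene length are not given in the sources used here.

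Counts were divided by the library total (CPM) or by the deposited length and rescaled (TPM). Genes with at least 10 counts in all 5 libraries were kept. The BCV was estimated with edgeR 4.0.16 in R 4.3.3 on the deposited counts after TMM scaling, with an intercept only. No test was made, since 1 group is described, and the spread between mice, sorts and library preparations cannot be told apart. The spread estimate was tested on simulated data in which 200 genes were set to a BCV of 60% and 11709 to 15%. The median estimates were 49.6% and 16.6%, so high values are pulled towards the middle and the others came out slightly high.

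Named genes were the sort and HSC markers, the 10 highest by TPM and by CPM, the highest of each list, sex-linked transcripts and the extremes of BCV, and 58 others of the 291 were named after their values were seen. The members and gene lists were chosen with earlier results of these data known. Alternatives were other count minimums, size factors from DESeq2 1.42.0, GENCODE M21 exon lengths, which matched 11732 of the 11909 genes, and leaving out each library. A few genes that the rule would name are not reported here.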

Additional observations from a re-analysis of the deposited data

Results flagged for a closer look

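Of the 291 named genes 23 (7.90%), and of the 46 lists 3, had a library whose gap to the nearest of the other 4 exceeded 0.71 of the whole range over the 5 libraries. Chance alone gives about 1 in 20 such gaps for normally distributed values. Some of the named genes were chosen for a high spread between these libraries or after their values were seen. The share of 7.90% is therefore not read against that rate, and no cause was tested.

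CTL 5 was the high library for the granule genes *Mpo* (181 TPM), *Elane* (165 TPM) and *Ctsg* (87.0 TPM), for the monocyte and neutrophil antigen gene *Ly6c2* (80.9 TPM), for *Dntt* (29.7 TPM), for *Tgfbr3* (69.0 TPM) and for the summed lymphoid-primed progenitor list (322 TPM). It was the low library for *Trp53* (293 TPM). The other 4 libraries lay between 8.54 and 19.0 TPM for *Mpo* and between 304.0 and 309 TPM for *Trp53*, so the gap was wide for the granule genes and small against the level for *Trp53*.

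CTL 3 was the high library for *Atf3* (36.5 TPM), *Slc7a11* (7.45 TPM), *Pdk4* (17.1 TPM), *Tie1* (119.9 TPM) and *Pcna* (346 TPM), and the low library for *Etfa* (199.8 TPM) and *Acadl* (219.9 TPM). Its genes with at least 10 counts in every library held 97.5% of its counts, against 98.4% to 98.8% in the other 4.

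CTL 1 was the high library for *Cd164* (349 TPM), *Itgb1* (225 TPM), *Csf3r* (69.8 TPM), *Paics* (387 TPM), *Prdx2* (489 TPM), *Lyz2* (574 TPM) and *Bst2* (219 TPM). For *Bst2*, an interferon-induced surface protein gene, the other 4 lay between 185 and 187 TPM. CTL 1 also had the lowest total counts. From CTL 1 to CTL 5 genes above 1 count per base grew 1.22 times, against 1.49 times for the totals. The part of depth in the high values of CTL 1 was not tested. CTL 4 was the high library for *Clec4e* (76.7 TPM), a pattern recognition receptor gene, and for the summed chemokine and other G-protein-coupled receptor list (2952 TPM). It was the low library for *Egfl7* (111 TPM), an endothelial factor gene that hosts miR-126, and for the summed lineage transcription factor list (1036 TPM).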

How the results depend on the processing

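The count of 11909 genes became 18562 when a mean of at least 1 TPM was required instead of 10 counts in each library. The highest 100 genes held 5.84% of TPM, 5.21% of CPM without length, and 6.68% of TPM with GENCODE M21 exon lengths. Mitochondrially encoded proteins made up 0.237% of counts and 0.480% of TPM. The median BCV of 15.4% became 19.6% over genes with at least 1 count in each library, 13.3% with at least 50, and 12.02% as the observed CV with the counting part removed. Leaving out a library gave 11972 to 12310 genes, 186 to 195 surface genes, 211 to 216 transcription factors, 383 to 387 metabolic genes, 5.71% to 5.95% for the highest 100, 0.230% to 0.243% for mitochondrial counts, and 14.5% to 16.6% for the median BCV. GENCODE lengths moved 188 of 276 named levels by more than their SD, and 80 of the 276 by over 1.5 times. Both counts include the shift that the rescaling of TPM gives to all genes. TMM rescaling moved 0 of 289, and 15 of 1445 leave-out values moved by over 1.5 times. Depth limits the lowest genes, whose counting CV was 15.6% in the lowest quintile. No paired analysis was possible because only 1 group is described.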

Other observations

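Genes known mainly from vessels were measured beside those of HSCs. Of 11 endothelial genes 6 entered the set, and *Emcn* (endomucin), *Egfl7* and *Pecam1* (CD31) had 129.8 ± 12.97, 127 ± 8.68 and 67.6 ± 12.9 TPM (SD, n = 5). The endothelial receptor genes *Tie1*, *Tek*, *Eng* and *Esam* given above belong to other lists, and HSCs also transcribe several of these genes. *Cpa3*, a mast cell protease gene also read in early progenitors, had 68.5, 47.4, 83.0, 49.9 and 50.8 TPM in CTL 1 to CTL 5.

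The X-linked genes *Eif2s3x* and *Kdm5c*, which have Y-linked partners, had 43.2, 52.3, 41.8, 51.4 and 45.2 TPM and 20.3, 22.7, 17.8, 24.8 and 18.1 TPM. Their Y-linked partners *Eif2s3y* and *Kdm5d* had 269.9, 0.678, 300.1, 0.333 and 305 TPM and 18.3, 0, 32.2, 0 and 41.4 TPM. *Xist* had a mean of 69.3 TPM, which became 43.1 TPM without CTL 2 and 44.5 TPM without CTL 4, and *Tsix* went from 31.7 to 19.5 TPM without CTL 2.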
